A study of Mus musculus with 12 samples.

Results

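Cholesterol is made from acetyl-CoA in a long series of steps, first through mevalonate to farnesyl diphosphate and squalene, then through lanosterol and the later sterols, and the liver is a main site of this synthesis. The transcription factor SREBP2, encoded by Srebf2, drives the genes of these enzymes. When sterols are low in the endoplasmic reticulum, SCAP carries SREBP2 to the Golgi, where proteases release its active part, and when sterols are high the INSIG proteins hold the complex back, so enzyme mRNA levels tend to report SREBP2 activity more closely than the Srebf2 mRNA does.

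The 28 genes described here were chosen by name as genes of cholesterol synthesis and of SREBP2 control, out of 34607 gene names on the array. They comprised 4 regulators, 8 genes of the mevalonate arm, 11 genes of the squalene and sterol arm and 5 genes of sterol transport, storage and receptor turnover. All 28 were tested, among 20576 genes tested in all, and the probe used for each was well above background on 12 of 12 arrays and saturated on none.

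Liver RNA of 12 mice was measured on one-colour Agilent arrays, 4 mice in each of 3 groups. The groups were WT mice of a mixed 129/Sv x C57BL/6 background, E2f1-/- mice and E2f2-/- mice, whose own background and alleles, like the sex of all mice, are not named in the labels. E2F1 and E2F2 are transcription factors of the cell cycle. Mice of each group had received 1 intraperitoneal dose of diethylnitrosamine (DEN), a liver carcinogen, of 25 mg/kg on postnatal day 14, and from weaning at 1 month a high fat diet with 60% of calories as fat for 32 weeks. They were killed at 9 months after a fast of 4 hours, and no untreated or chow-fed group was analysed here, so DEN and the diet are shared by every comparison. The comparisons ask how loss of either factor goes with liver gene expression in this model of liver cancer. One label of the E2f1-/- samples, the source name, gives vehicle and chow instead, against their titles, descriptions and characteristics, which were followed.

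Values are log2 signals minus each array's own 75th percentile, so they compare livers for 1 gene and not 1 gene with another. That percentile lay between 119.2 and 238.3 intensity units, and 44.8% to 54.5% of probes were well above background per array. Arrays of a group correlated at r of 0.953 to 0.988 over the genes tested that had no missing value (18 pairs), and arrays of different groups at 0.928 to 0.980 (48 pairs). E2f1 was lower in E2f1 knockout than in WT livers, by 0.82 ± 0.19 (log2, SE; adjusted p = 0.0114, limma). E2f2 did not pass the test in the livers labelled E2f2-/- (-0.26 ± 0.21, adjusted p = 0.408, limma), and was lower in E2f1 knockout livers (-1.50 ± 0.21, adjusted p = 0.00141, limma). Whether the probes lie in the deleted parts of these genes could not be read from the labels, and the third group is therefore called E2f2-labelled.

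The 12 hepatocyte markers were well above background on all 12 arrays, so the label of liver held. Their mean level was 7.50 to 8.00 in WT, 8.23 to 8.78 in E2f1 knockout and 8.03 to 8.42 in E2f2-labelled livers, with 6 and 3 of 12 called higher than in WT. The marker counts of this paragraph are to be read against all genes tested. Of those 13.2% and 14.6% were called higher and 7.41% and 7.58% lower. Of the 12 hepatocyte marker differences 10 were positive in each comparison. Markers of liver tumour and fetal liver moved the other way, with 7 of 8 called lower in E2f1 knockout and 8 of 8 in E2f2-labelled livers. Their mean was 1.70 to 4.70 in WT, -0.89 to 0.93 in E2f1 knockout and -1.61 to -0.39 in E2f2-labelled livers. The marker lists, this one included, were chosen with earlier results of these data known. Its counts are therefore a description only. Among 12 macrophage markers 4 and 5 were called lower and 1 was called higher in each comparison with WT, and their mean was 1.74 to 3.19 in WT, 1.83 to 2.51 in E2f1 knockout and 1.21 to 2.50 in E2f2-labelled livers. They did not move as 1, and 4 and 3 of the 12 differences were positive. In E2f1 knockout Itgax, Trem2, Gpnmb and Cd9 were called lower. Clec4f was called higher there (1.87), while Vsig4 and Marco differed by 1.96 and 2.46 without a call. Neutrophil markers were lower in 4 and 2 of 8, and stellate cell and fibroblast markers in 3 and 3 of 7. These counts include the macrophage marker Gpnmb and the neutrophil marker Ngp in both comparisons, which entered the test through the WT livers alone. Gpnmb was well above background in 4 of 4 WT livers and 0 of 4 of each other group. Ngp was so in 4 of 4 WT, 1 of 4 E2f1 knockout and 2 of 4 E2f2-labelled livers. Endothelial markers were lower in 1 and 2 of 7, with means of 2.10 to 2.16 in WT, and at most 1.70 in each liver of both other groups. Among them the sinusoidal marker Lyve1 was lower by 2.91 (-2.91 ± 0.27, adjusted p = 8.49e-05, limma) and by 2.79 (-2.79 ± 0.27, adjusted p = 6.97e-05, limma). The other endothelial markers did not all follow it, and 1 and 3 of the 7 differences were positive. Means of Kdr and Stab2 were 4.86 and 4.07 in WT, 4.94 and 4.03 in E2f1 knockout, and 4.93 and 4.22 in E2f2-labelled livers. Of 7 adipocyte markers only 3 were tested, since Adipoq, Lep, Plin1 and Retn did not pass the filter on dim probes. Fabp4 and Cidec were called lower in E2f2-labelled livers (-3.50 ± 0.73 and -3.18 ± 0.78, adjusted p = 0.00673 and 0.014, limma), and Cfd was not called. Whether these genes report adipocyte RNA here was not tested. E2f1 knockout liver 1 stood apart in the mean of 3 tested adipocyte markers (3.67, the other livers of that group -1.60 to -0.04), and the members called in E2f1 knockout were the same without it. These marker levels moved with group, and their part in the results that follow was not tested. In whole liver, fewer cells of a type and less RNA per cell cannot be told apart. Each of the 4 slides held 1 array of each group at a fixed position, so position on the slide and group cannot be told apart.

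Few members of the cholesterol pathway passed the test. Against WT, 3 of 28 members were called higher and 0 lower in E2f1 knockout livers (limma, Benjamini-Hochberg adjusted p under 0.05), where 20.6% of all genes tested were called, 13.2% higher and 7.41% lower. The 3 were Acat2, Ebp and Npc1. In E2f2-labelled livers 3 members were called higher (Acat2, Ebp and Hsd17b7) and 1 lower (Npc2), where 22.2% of all genes were called, 14.6% higher and 7.58% lower. The share of members called was below the share of all genes in both comparisons. The median difference of the members from WT was 0.12 for E2f1 knockout and 0.08 for E2f2-labelled livers, against 0.13 and 0.18 over all genes. Of all calls 64.0% and 65.8% were higher, but 50.4% and 49.5% after quantile normalization, which moved the median of all genes from 0.13 to 0.03 and from 0.18 to 0.07. The same setting turned the members' medians to -0.087 and -0.14. On leaving out 1 liver the members' medians ran from 0.046 to 0.19 (lowest without WT liver 4, highest without WT liver 2) and from -0.05 to 0.25 (lowest without E2f2-labelled liver 3, highest without E2f2-labelled liver 2), so they lay below or above those of all genes depending on 1 liver.

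Between both labelled knockouts, 0 of 28 members were called (limma), where 1.64% of all genes were. At an unadjusted p under 0.05 there were 3 of 28 members, against 11.5% of all genes. These were Npc1 (-0.60 ± 0.18, E2f2-labelled minus E2f1 knockout, adjusted p = 0.157, limma), Cyp51 (-0.77 ± 0.30, adjusted p = 0.324, limma) and Sqle (0.57 ± 0.24, adjusted p = 0.391, limma). The comparisons with WT share the WT livers, so a member called in both gives no independent second call.

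**Figure D1:**
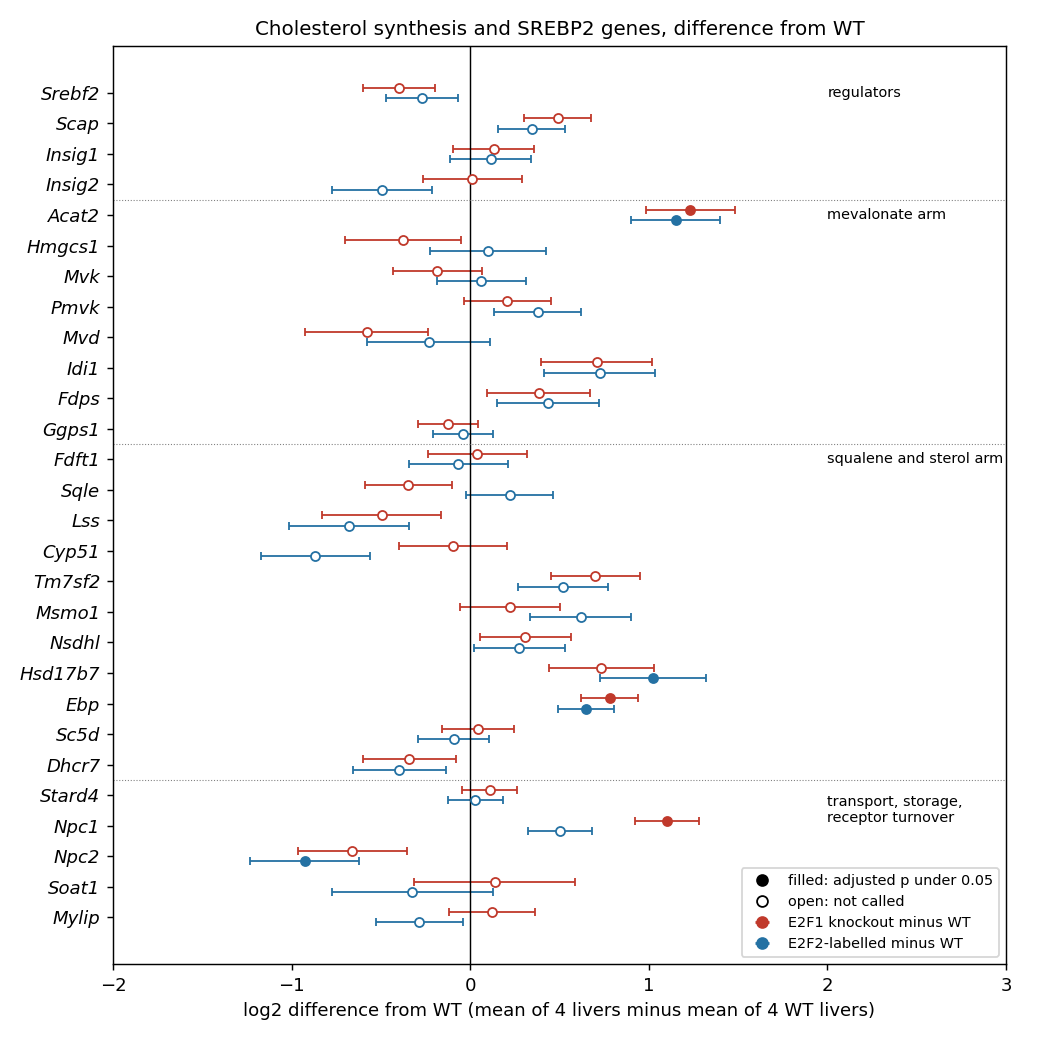
Difference from WT of each of the 28 genes, in log2 units on the horizontal axis, for E2f1 knockout (red) and E2f2-labelled livers (blue), with SE bars from limma, n = 4 per group. Filled points passed an adjusted p under 0.05. Acat2 and Ebp are filled in both colours, while most enzymes lie on either side of 0 with bars that reach toward it.

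Promoters of some members are shown as a description, chosen by the letters they hold or by a call against WT, as given below. The letters sought include those that factors of the pathway are known to read. Whether they bear on the levels of these genes was not tested. SREBPs bind sterol regulatory elements and act with NF-Y, which binds CCAAT, and with Sp1, which binds GGGCGG. The 250 bases before the start of each gene were taken from RefSeq on GRCm38.p6, a later build than that of the array, and 23 of 28 members had at least 1 such window (29 windows). Hmgcs1 holds the only match to the SRE-like letters, Mvk holds the most CCAAT boxes, and Acat2, Ebp, Hsd17b7 and Npc2 are the members with a window that were called against WT. Each runs from 5′ to 3′ on the gene's strand, and capitals mark CCAAT on either strand (CCAAT or ATTGG) and the SRE-like match. The windows are chr13:119690101-119690350 on the plus strand for Hmgcs1, chr5:114444019-114444268 on the plus strand for Mvk, chr17:12960726-12960975 on the minus strand for Acat2, chrX:8193513-8193762 on the minus strand for Ebp, chr1:169969206-169969455 on the minus strand for Hsd17b7 and chr12:84773113-84773362 on the minus strand for Npc2.
Hmgcs1: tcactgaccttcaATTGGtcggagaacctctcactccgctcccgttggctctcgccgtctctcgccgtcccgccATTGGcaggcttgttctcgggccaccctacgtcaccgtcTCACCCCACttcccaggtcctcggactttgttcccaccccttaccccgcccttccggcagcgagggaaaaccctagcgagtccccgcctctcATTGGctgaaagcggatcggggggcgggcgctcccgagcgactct
Mvk: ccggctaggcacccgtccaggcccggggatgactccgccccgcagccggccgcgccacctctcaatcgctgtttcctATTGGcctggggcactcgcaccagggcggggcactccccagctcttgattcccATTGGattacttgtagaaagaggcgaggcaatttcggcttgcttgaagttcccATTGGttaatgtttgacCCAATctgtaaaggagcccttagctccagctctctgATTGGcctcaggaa
Acat2: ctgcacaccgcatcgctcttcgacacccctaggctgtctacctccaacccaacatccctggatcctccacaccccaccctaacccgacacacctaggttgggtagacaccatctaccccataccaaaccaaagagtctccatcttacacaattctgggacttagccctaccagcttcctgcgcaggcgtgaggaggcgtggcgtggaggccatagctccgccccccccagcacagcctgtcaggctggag
Ebp: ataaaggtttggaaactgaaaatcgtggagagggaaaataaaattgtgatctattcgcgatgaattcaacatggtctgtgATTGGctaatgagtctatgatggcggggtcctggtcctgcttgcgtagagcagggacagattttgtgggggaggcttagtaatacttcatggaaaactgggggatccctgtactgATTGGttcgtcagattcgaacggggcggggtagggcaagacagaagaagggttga
Hsd17b7: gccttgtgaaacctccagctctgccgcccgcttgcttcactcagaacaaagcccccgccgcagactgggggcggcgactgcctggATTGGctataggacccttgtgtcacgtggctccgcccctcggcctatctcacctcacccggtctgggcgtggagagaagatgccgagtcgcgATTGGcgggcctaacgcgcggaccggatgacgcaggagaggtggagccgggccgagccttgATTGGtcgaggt
Npc2: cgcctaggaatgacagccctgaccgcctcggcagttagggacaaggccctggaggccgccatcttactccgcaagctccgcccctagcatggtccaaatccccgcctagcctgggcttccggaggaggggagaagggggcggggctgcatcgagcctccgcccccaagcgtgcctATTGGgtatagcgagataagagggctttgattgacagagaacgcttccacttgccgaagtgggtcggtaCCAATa

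On both strands, CCAAT was found for 21 of 23 members with a window, against 37.5% of all 27025 genes with one and 39.7% of the 11457 of them that were tested on the array. GGGCGG was found for 20 of 23 members, against 35.4% of all genes and 57.6% of those tested. The SRE-like letters TCACNCCAC were found for 1 of 23 members, against 1.22% of all genes, and the E2F-like letters TTTNGCGC for 0 of 23, against 1.31%. The Hmgcs1 match lies at -137 to -129 from the start, between its CCAAT boxes. Mvk had 5 CCAAT boxes, Hsd17b7 and Hmgcs1 had 3 each, Ebp and Npc2 had 2 each, and Acat2 had 0. A match is only a description of the letters in this window, and the counts of genes with several windows join them.

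The regulators themselves did not pass the test in any comparison, with 0 of 4 called each time (limma, and at an unadjusted p under 0.05 only Scap in E2f1 knockout). Over all genes 20.6% and 22.2% were called against WT, and 1.64% between both labelled knockouts. The log2 level of Srebf2 was 0.03, 0.17, -0.40 and -0.53 in WT livers 1 to 4, -0.63, -0.94, -0.10 and -0.64 in E2f1 knockout livers 1 to 4, and -0.43, -0.53, -0.33 and -0.51 in E2f2-labelled livers 1 to 4. WT livers 1 and 2 lay above every liver of the other groups, and WT livers 3 and 4 lay among them. Srebf2 differed from WT by -0.40 ± 0.20 in E2f1 knockout (adjusted p = 0.191, limma) and by -0.27 ± 0.20 in E2f2-labelled livers (adjusted p = 0.361, limma). Scap, the sterol-sensing escort of SREBP2, had log2 levels of 5.20, 4.81, 4.62 and 4.46 in WT livers 1 to 4, 5.19, 5.16, 5.57 and 5.13 in E2f1 knockout livers 1 to 4, and 4.96, 5.02, 5.44 and 5.05 in E2f2-labelled livers 1 to 4. Every liver of both other groups lay above WT livers 2, 3 and 4, but WT liver 1 lay among them. The difference was 0.49 ± 0.19 in E2f1 knockout (adjusted p = 0.0833, limma) and 0.34 ± 0.19 in E2f2-labelled livers (adjusted p = 0.206, limma). In E2f1 knockout, Scap passed the test without WT liver 1 (0.63, adjusted p = 0.0331, limma), and Srebf2 passed it with array weights (-0.58, adjusted p = 0.042, limma).

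The INSIG genes hold the SCAP complex in the endoplasmic reticulum, and Insig1 is itself a target of SREBPs. Insig1 levels were 2.90, 2.78, 2.50 and 2.22 in WT livers 1 to 4, 2.77, 2.84, 2.72 and 2.59 in E2f1 knockout livers 1 to 4, and 2.66, 2.07, 3.02 and 3.10 in E2f2-labelled livers 1 to 4. The 3 groups overlapped widely, and the differences from WT were 0.13 ± 0.23 (adjusted p = 0.742, limma) and 0.11 ± 0.23 (adjusted p = 0.749, limma), with both signs turned by quantile normalization. Insig2 levels were 5.33, 5.00, 4.64 and 5.16 in WT livers 1 to 4, 4.47, 4.69, 5.87 and 5.15 in E2f1 knockout livers 1 to 4, and 4.93, 4.50, 4.41 and 4.31 in E2f2-labelled livers 1 to 4. E2f1 knockout liver 3 was the highest of all 12, and E2f2-labelled livers 2, 3 and 4 lay below every WT liver. Insig2 differed from WT by 0.01 ± 0.28 in E2f1 knockout (adjusted p = 0.983, limma), a sign that its other probe and quantile normalization turned, and by -0.49 ± 0.28 in E2f2-labelled livers (adjusted p = 0.224, limma).

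**Figure D2:**
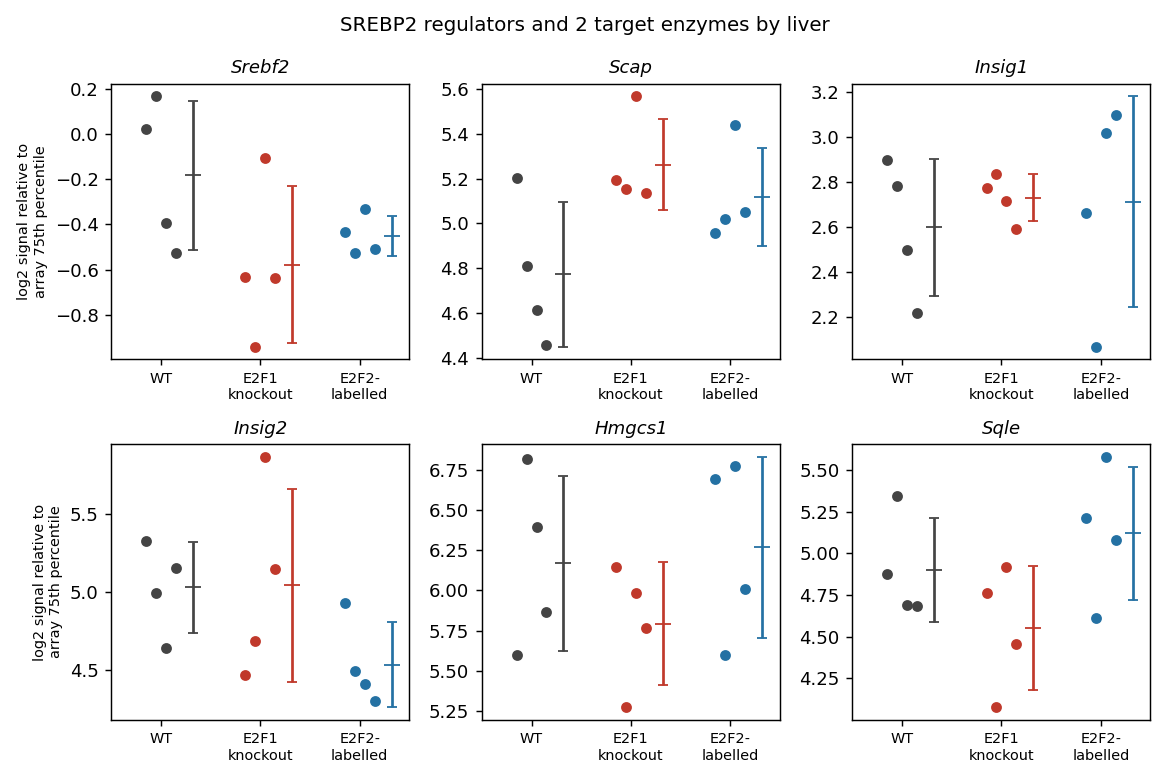
Log2 signal relative to the array's 75th percentile for the 4 regulators and for the target enzymes Hmgcs1 and Sqle, each point 1 liver, with the mean and SD of 4 livers beside the points. None of these genes was called in any comparison, and the groups overlap in each panel.

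In the mevalonate arm, 1 of 8 genes was called higher and 0 lower in each comparison with WT, and that gene was Acat2. Of all genes, 13.2% and 14.6% were called higher in these comparisons. Acat2 encodes the cytosolic thiolase that joins acetyl-CoA units at the start of the pathway, and is not the esterifying enzyme Soat2 that shares the abbreviation. Its log2 level was 4.22, 4.29, 5.21 and 4.58 in WT livers 1 to 4, 5.81, 5.21, 6.24 and 5.99 in E2f1 knockout livers 1 to 4, and 5.69, 5.64, 5.68 and 5.90 in E2f2-labelled livers 1 to 4. E2f2-labelled livers all lay above WT, while E2f1 knockout liver 2 (5.21) lay level with the highest WT liver, liver 3. Acat2 was higher than in WT by 1.23 ± 0.25 in E2f1 knockout (2.35-fold, adjusted p = 0.00631, limma) and by 1.15 ± 0.25 in E2f2-labelled livers (2.22-fold, adjusted p = 0.00799, limma). It was higher on 4 of 4 slides in each, by 0.91 to 1.59 and by 0.46 to 1.47. Its probe lies at chr17:13136482-13136541 (mm9, minus strand) per the files, and no annotation of exons on that build was used here. WT liver 3 also had the lowest mean of the tumour and fetal markers among WT livers (1.70, the others 3.99 to 4.70), whose part was not tested.

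The other 7 genes of this arm were not called. Hmgcs1, the cytosolic synthase of HMG-CoA and a classical SREBP2 target, had log2 levels of 5.60, 6.81, 6.40 and 5.87 in WT livers 1 to 4, 6.15, 5.27, 5.99 and 5.77 in E2f1 knockout livers 1 to 4, and 6.69, 5.60, 6.77 and 6.01 in E2f2-labelled livers 1 to 4. WT liver 2 was the highest of all livers and E2f1 knockout liver 2 the lowest, so the groups overlapped throughout. The differences from WT were -0.38 ± 0.32 (95% interval -1.08 to 0.33, adjusted p = 0.464, limma) and 0.10 ± 0.32 (interval -0.61 to 0.80, adjusted p = 0.853, limma), the latter turned to -0.13 by quantile normalization. Idi1, which isomerises isopentenyl diphosphate, differed by 0.71 ± 0.31 (adjusted p = 0.13, limma) and 0.73 ± 0.31 (adjusted p = 0.113, limma), and passed the test in both comparisons without WT liver 3 (adjusted p = 0.0491 and 0.0433, limma). Mvd, the decarboxylase that yields isopentenyl diphosphate, differed by -0.58 ± 0.35 and -0.23 ± 0.35. The differences of Mvk, Pmvk, Fdps and Ggps1, which phosphorylate mevalonate or build farnesyl and geranylgeranyl diphosphate, lay between -0.18 and 0.44.

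In the squalene and sterol arm, 1 of 11 genes was called higher in E2f1 knockout and 2 of 11 in E2f2-labelled livers, with 0 lower. Over all genes 13.2% and 14.6% were called higher. Ebp, the sterol isomerase that moves a double bond in the ring system, was called in both. Its log2 level was 6.99, 7.29, 7.62 and 7.34 in WT livers 1 to 4, 7.87, 8.11, 8.20 and 8.19 in E2f1 knockout livers 1 to 4, and 7.74, 8.04, 8.03 and 8.04 in E2f2-labelled livers 1 to 4. Every liver of both other groups lay above the highest WT liver. Ebp was higher by 0.78 ± 0.16 in E2f1 knockout (1.72-fold, adjusted p = 0.00644, limma) and by 0.65 ± 0.16 in E2f2-labelled livers (1.57-fold, adjusted p = 0.0137, limma), on 4 of 4 slides each. The second of these was lost with quantile normalization, with centring on the median and with the deposited matrix values (adjusted p = 0.0727, 0.0664 and 0.0789, limma). The probe lies at chrX:7762463-7762522 (mm9, minus strand).

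Hsd17b7 encodes the sterol ketone reductase that acts after removal of the methyl groups. Its log2 level was 1.00, 1.98, 2.06 and 1.24 in WT livers 1 to 4, 2.18, 2.34, 2.56 and 2.14 in E2f1 knockout livers 1 to 4, and 2.60, 1.97, 3.30 and 2.50 in E2f2-labelled livers 1 to 4. The E2f1 knockout livers all lay above the WT livers, while E2f2-labelled liver 2 lay among them. Hsd17b7 was higher than in WT by 1.02 ± 0.30 in E2f2-labelled livers (2.03-fold, adjusted p = 0.0286, limma) and differed by 0.74 ± 0.30 in E2f1 knockout (adjusted p = 0.0996, limma). The first was higher on 3 of 4 slides, and it held in 12 of 24 other settings (adjusted p = 0.0142 to 0.078), being lost without WT liver 1 or 4 or E2f2-labelled liver 1, 3 or 4. All 3 of its tested probes were higher than in WT in both groups. The probe used lies at chr1:171880203-171880262 (mm9, minus strand).

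Cyp51, the lanosterol demethylase, lay in the other direction without passing the test. Its log2 level was 0.68, 1.77, 0.65 and 0.58 in WT livers 1 to 4, 0.78, 0.64, 1.23 and 0.65 in E2f1 knockout livers 1 to 4, and 0.37, -0.52, 0.56 and -0.20 in E2f2-labelled livers 1 to 4. Every E2f2-labelled liver lay below every WT and every E2f1 knockout liver, and WT liver 2 stood far above the other WT livers. The difference from WT was -0.87 ± 0.30 in E2f2-labelled livers (adjusted p = 0.0589, limma, and under 0.05 in 5 of 24 other settings) and -0.09 ± 0.30 in E2f1 knockout (adjusted p = 0.871, limma). Sqle, the epoxidase that begins the sterol steps, had log2 levels of 4.88, 5.34, 4.69 and 4.68 in WT livers 1 to 4, 4.76, 4.08, 4.92 and 4.46 in E2f1 knockout livers 1 to 4, and 5.21, 4.61, 5.58 and 5.08 in E2f2-labelled livers 1 to 4. The groups overlapped, and the differences from WT were -0.35 ± 0.24 (adjusted p = 0.358, limma) and 0.22 ± 0.24 (adjusted p = 0.545, limma), the latter turned to -0.05 by quantile normalization.

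Among the remaining enzymes of this arm, Tm7sf2, a sterol reductase, differed by 0.70 ± 0.25 in E2f1 knockout (adjusted p = 0.0668, limma). It passed the test with the slide as a replicate block (adjusted p = 0.032, limma), and in 3 of 24 other settings in all. Lss, which closes the sterol rings, differed by -0.50 ± 0.33 and -0.68 ± 0.33 (adjusted p = 0.333 and 0.165, limma). In E2f2-labelled livers Lss passed the test with array weights (adjusted p = 0.0198, limma), in 1 of 24 other settings in all. Msmo1, which oxidises the methyl groups, differed by 0.22 ± 0.28 and 0.62 ± 0.28 (adjusted p = 0.64 and 0.135, limma). Fdft1 (squalene synthase), Nsdhl, Sc5d and Dhcr7, whose enzymes form squalene or act on the late sterols, differed by -0.40 to 0.31. Neighbouring steps of the arm therefore lay on both sides of 0 in each comparison. For Fdft1 the tested probes disagreed in sign in E2f1 knockout.

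Of the 5 genes of transport, storage and receptor turnover, 1 was called higher in E2f1 knockout and 1 lower in E2f2-labelled livers. The shares of all genes called in these directions were 13.2% and 7.58%. NPC2 and NPC1 act in turn in the lysosome, where NPC2 binds freed cholesterol in the lumen and passes it to NPC1 in the membrane. Npc1 had log2 levels of 0.37, -0.02, 0.38 and 0.55 in WT livers 1 to 4, 1.71, 1.15, 1.38 and 1.44 in E2f1 knockout livers 1 to 4, and 0.84, 0.58, 1.14 and 0.72 in E2f2-labelled livers 1 to 4. The 3 groups did not overlap, with E2f1 knockout highest, E2f2-labelled between and WT lowest, but the gaps were narrow. The lowest E2f1 knockout liver was 1.146 and the highest E2f2-labelled liver 1.142. The lowest E2f2-labelled liver was 0.581 and the highest WT liver 0.547. The difference between both labelled knockouts did not pass the test (adjusted p = 0.157, limma). Npc1 was higher than in WT by 1.10 ± 0.18 in E2f1 knockout (2.15-fold, adjusted p = 0.00257, limma). In E2f2-labelled livers it differed by 0.50 ± 0.18 (adjusted p = 0.0619, limma). There it passed the test with the slide as a replicate block (adjusted p = 0.0253, limma), and in 3 of 24 other settings in all.

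Npc2 had log2 levels of 3.81, 3.31, 2.14 and 2.80 in WT livers 1 to 4, 2.53, 2.34, 2.48 and 2.07 in E2f1 knockout livers 1 to 4, and 2.56, 2.04, 1.99 and 1.75 in E2f2-labelled livers 1 to 4. WT livers spread over the widest range and WT liver 3 lay among the other groups. Npc2 was lower than in WT by 0.93 in E2f2-labelled livers (-0.93 ± 0.31, 1.90-fold, adjusted p = 0.0476, limma) and differed by -0.66 ± 0.31 in E2f1 knockout (adjusted p = 0.151, limma). The first was lower on 4 of 4 slides, and it held in 12 of 24 other settings (adjusted p = 0.00522 to 0.124), being lost on leaving out any single liver other than WT liver 3 and E2f2-labelled liver 1. The probe lies at chr12:86097947-86098006 (mm9, minus strand). Npc2 is also abundant in macrophages, whose markers are given above and whose part was not tested. Stard4, a cytosolic sterol carrier, Soat1, which esterifies cholesterol for storage, and Mylip, a ubiquitin ligase that promotes breakdown of lipoprotein receptors, differed by -0.32 to 0.14, and Soat1 had the largest spread within groups of all 28 (SD 0.72).

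**Figure D3:**
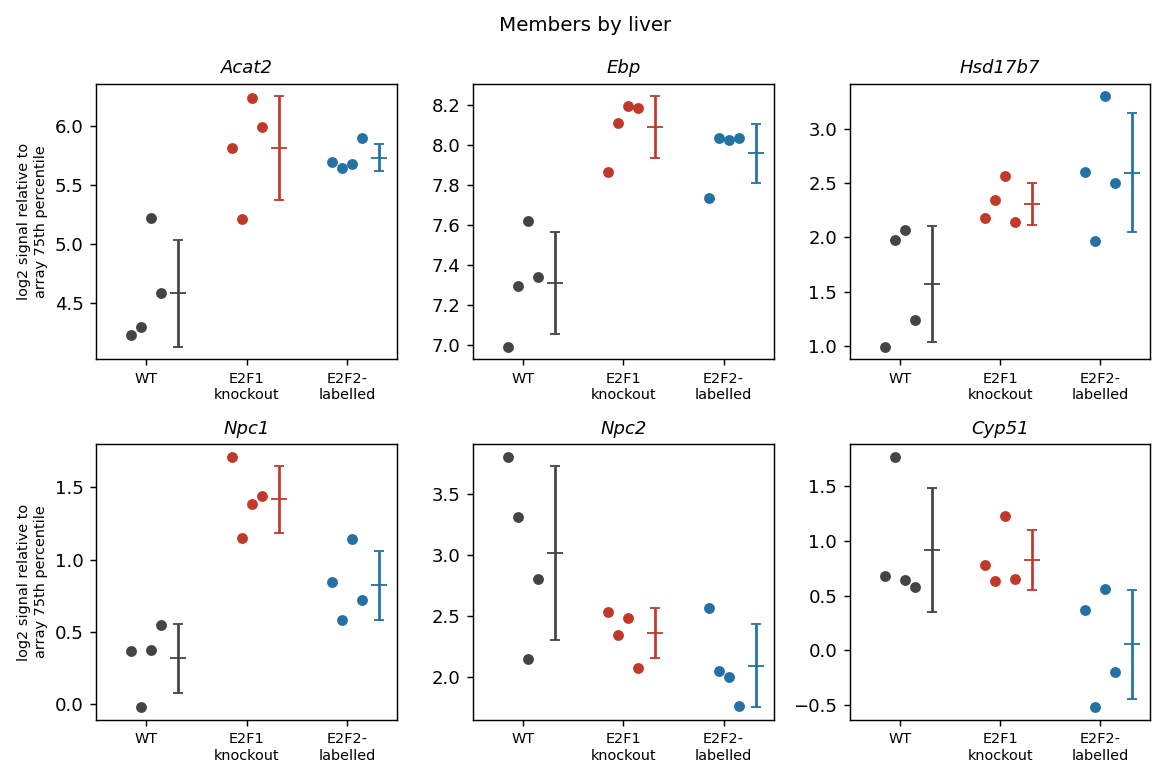
Log2 signal relative to the array's 75th percentile for the 5 members called against WT and for Cyp51, each point 1 liver, with the mean and SD of 4 livers beside the points. Ebp and Npc1 show no overlap of E2f1 knockout with WT, and Npc2 shows WT livers spread from 2.14 to 3.81.

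Counted by overlap, 3 members lay wholly above WT in E2f1 knockout livers (Ebp, Npc1 and Hsd17b7), where 21.3% of all genes did not overlap in either direction. In E2f2-labelled livers 3 lay wholly above WT (Acat2, Ebp and Npc1) and 1 wholly below (Cyp51), where 23.9% of all genes did not overlap. Between both labelled knockouts 2 lay apart (Cyp51 and Npc1, lower in E2f2-labelled livers), against 9.04% of all genes. These shares of members were below or near those of all genes.

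What the enzymes shared was a rise and fall from liver to liver of the same group, partly shared between groups by slide. Of the 19 enzymes, 16 were highest in E2f2-labelled liver 3 of the 4 livers of that group, and 17 were lowest in liver 2. In E2f1 knockout 14 were highest in liver 3 and 15 lowest in liver 2. In WT 10 were highest in liver 2 and 8 in liver 3, and 10 were lowest in liver 4. Over all genes the same livers were highest or lowest for 30.6% and 18.0% in E2f2-labelled, 36.7% and 26.5% in E2f1 knockout, and 13.2% (liver 2, highest) and 20.1% (liver 4, lowest) in WT. Liver numbers match the slides, so the high liver 3 and the low liver 2 of both labelled knockouts lay on the same slides, while WT liver 2, on the slide of the low livers, was high. Over all genes, deviations from the group mean correlated between E2f1 knockout and E2f2-labelled livers of 1 slide, as a description. The values were 0.27, 0.19, 0.42 and 0.41 on slides 1 to 4, so slide 3 did not stand apart from slide 4. Slide and liver cannot be told apart within a group. The livers of a group have no order, the choice of these livers followed the values, and no test was made.

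The deviations were not small beside the genotype differences. The mean log2 level of the 19 enzymes was 3.57 to 4.23 in WT, 3.65 to 4.30 in E2f1 knockout and 3.59 to 4.45 in E2f2-labelled livers, so the groups covered nearly the same range. The median SD within groups was 0.39 for the enzymes and 0.32 for all genes. Exceptions among the enzymes were Acat2, Ebp and Ggps1, whose highest E2f2-labelled liver was not liver 3, and Acat2 varied little there (5.65 to 5.90). On slides 1, 3 and 4 the median difference of the enzymes from WT was 0.55, 0.37 and 0.29 in E2f1 knockout and 0.34, 0.48 and 0.45 in E2f2-labelled livers, and on slide 2 it was -0.76 and -0.64. Slide 2 held the WT liver with the highest enzyme mean and the lowest liver of both other groups. In E2f1 knockout liver 3 was highest for 3 of 4 genes of acetyl-CoA supply (Acly, Acss2, Slc25a1 and Aacs), which feed the pathway. In E2f2-labelled livers this was 4 of 4. Liver 2 was lowest for 4 of 4 and 3 of 4. Over all genes liver 3 was highest for 36.7% and 30.6%, and liver 2 lowest for 26.5% and 18%. In WT liver 3 was highest for 2 of 4 and liver 2 lowest for 0 of 4. In the labelled knockouts liver 3 was also highest for 6 and 5 of 12 hepatocyte markers, and for 0 of 12 macrophage markers.

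**Figure D4:**
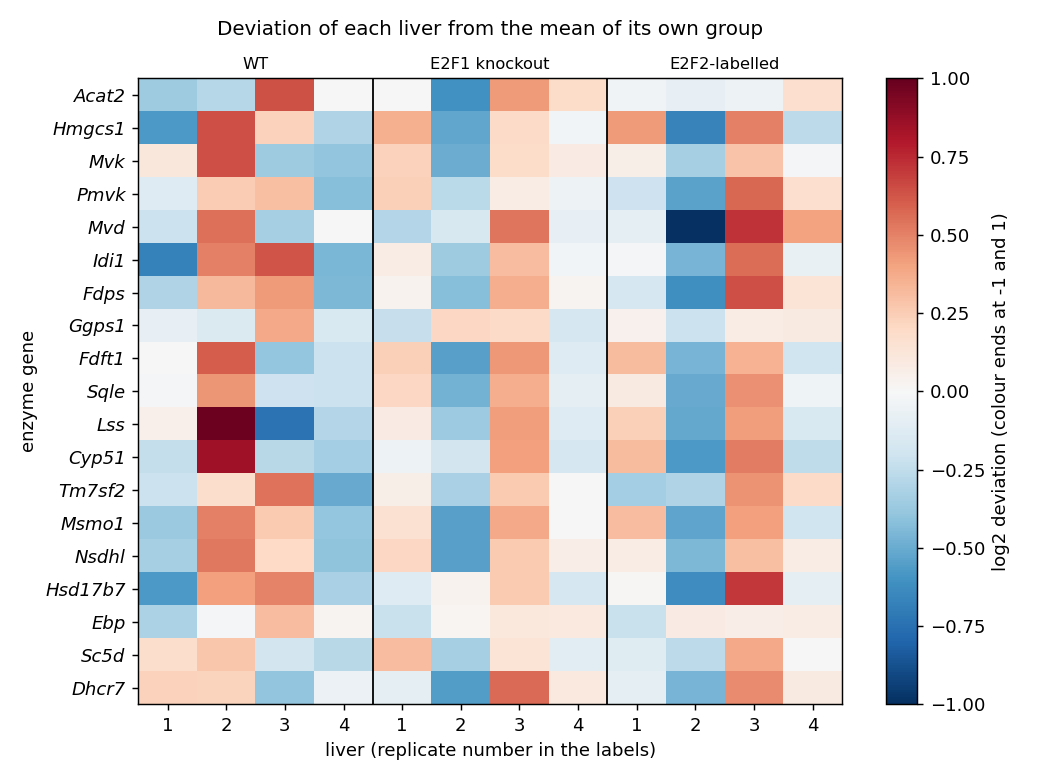
Log2 deviation of each of 12 livers (columns, by group and replicate number) from the mean of its own group, for the 19 enzyme genes (rows), red above and blue below, with colours ending at -1 and 1. Most rows turn red in liver 3 and blue in liver 2 of both labelled knockouts, and red in liver 2 of WT.

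Genes next to the pathway were counted from lists written for this description, to be read against the 20.6% and 22.2% of all genes called in the comparisons with WT. Srebf1, which encodes the related factor SREBP1, differed from WT by 0.67 ± 0.35 in E2f1 knockout and by 0.85 ± 0.35 in E2f2-labelled livers (adjusted p = 0.195 and 0.0985, limma). It passed the test in both with the slide as a replicate block (adjusted p = 0.0389 and 0.0153, limma), and in 1 and 3 of 24 other settings in all. Of the 4 genes of acetyl-CoA supply 0 were called (limma, and 0 at an unadjusted p under 0.05), with all 4 differences positive in each comparison with WT (medians 0.31 and 0.20).

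Of 7 genes of the liver X receptors (LXR, sterol sensors that switch on efflux) and sterol efflux, 2 were called higher and 1 lower in each comparison with WT (20.6% and 22.2% of all genes called). Abcg5 and Abcg8, partners in the pump that sends sterols into bile, rose together. Abcg5 had log2 levels of 3.75, 3.99, 4.51 and 4.90 in WT livers 1 to 4, 5.42, 5.09, 5.71 and 5.47 in E2f1 knockout livers 1 to 4, and 5.14, 5.55, 5.53 and 5.00 in E2f2-labelled livers 1 to 4, with no overlap of either group with WT. It was higher by 1.13 ± 0.25 (adjusted p = 0.00914, limma) and by 1.02 ± 0.25 (adjusted p = 0.0138, limma), the second lost in 1 of 24 other settings. Abcg8 was -1.45 to -0.34 in WT, 0.31 to 0.79 in E2f1 knockout and -0.14 to 0.69 in E2f2-labelled livers, higher by 1.40 ± 0.27 (adjusted p = 0.005, limma) and by 1.23 ± 0.27 (adjusted p = 0.00832, limma). Abcg1, an exporter of cholesterol to lipoproteins that is abundant in macrophages, was 2.11 to 3.41 in WT, 1.24 to 1.82 in E2f1 knockout and 0.79 to 1.59 in E2f2-labelled livers, lower by 1.04 (-1.04 ± 0.28, adjusted p = 0.0216, limma) and by 1.36 (-1.36 ± 0.28, adjusted p = 0.00636, limma).

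Of 7 tested genes (of 8) of the branches of mevalonate that lead away from sterols, 1 was called higher in each comparison. It was Pdss2, of coenzyme Q synthesis, higher by 0.64 ± 0.17 (adjusted p = 0.0189, limma) and by 0.85 ± 0.17 (adjusted p = 0.00541, limma). With the slide as a replicate block Dhdds, of dolichol synthesis, was also called in E2f2-labelled livers (0.44 higher, adjusted p = 0.0296, limma), in 1 of 24 other settings in all. Of 14 genes of esterification and sterol transport, 2 were called higher and 1 lower in E2f1 knockout, and 3 higher and 2 lower in E2f2-labelled livers (20.6% and 22.2% of all genes called). Npc1l1, a sterol importer, was not among them, and was called in 3 and 5 of 23 other settings, the slide as a replicate block included. Its probe was well above background in 3 of 4 WT livers and in 0 of 4 of each other group. It thus entered the test through the WT livers alone, and no result is drawn from its calls. Stard5, a cytosolic sterol carrier, was higher by 0.98 ± 0.18 (adjusted p = 0.00431, limma) and by 1.06 ± 0.18 (adjusted p = 0.00271, limma). Gramd1b, which moves cholesterol from the plasma membrane to the endoplasmic reticulum, was lower by 0.85 (-0.85 ± 0.23, adjusted p = 0.0205, limma) and by 0.99 (-0.99 ± 0.23, adjusted p = 0.0101, limma). Its relative Gramd1c and Tmem97, a membrane protein that binds NPC1, were called in E2f2-labelled livers, higher by 0.62 ± 0.17 (adjusted p = 0.0222, limma) and by 0.55 ± 0.14 (adjusted p = 0.0144, limma). Of 24 other settings each, Pdss2 held in 19 in E2f1 knockout, Abcg1 in 22 and Gramd1b in 23, and in E2f2-labelled livers Gramd1c held in 17 and Tmem97 in 21. With 4 livers per group, the precision of every value here is limited by the number of arrays.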

How the data were processed

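The members and gene lists were chosen with earlier results of these data known. Per the labels, 50 ng of liver RNA per mouse was labelled with Cy3, and the submitters' processing notes name Agilent Feature Extraction (version 10.7.3.1) for the authors' scanner output. The deposited processed signal is an intensity on a linear scale, background-subtracted per the file headers. The deposited series matrix holds log2 values whose normalization no label or header states, and it served as an alternative only.

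Control and outlier spots were left out, spots of a probe were averaged, and log2 intensity minus the array's 75th percentile over 59305 spots was the value. A probe was tested if at least 3 of the 4 arrays in any group had it well above background (28442 of 55681), and the brightest represented a gene. Probes were named through RefSeq accession (28026), symbol (3418) or synonym (295), the other 23942 keeping the name in the file. Of 9 members with several tested probes, sign differed between probes for 3 (E2f1 knockout) and 1 (E2f2-labelled). Positions are those of the files (mm9).

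limma 3.58.1 in R 4.3.3 (with the package data.table, at 1.17.8) fitted all 12 arrays without covariates (9 residual degrees of freedom, prior 3.13), and an adjusted p under 0.05 was called. The fit was tested on simulated data. Replicates are separate mice per the series text. The replicate number matches the slide in the file headers. Deviations of arrays on a slide correlated at 0.04 to 0.42, over 0.1 in 10 of 12 pairs. Values in every array are given for members called in any comparison and for Srebf2, Scap, Insig1, Insig2, Hmgcs1 and Sqle. From the related lists, up to 4 called genes per list with the largest difference were named. Values of Cyp51 in every array, and other members given singly, were chosen after the values were seen. The list of SREBP processing genes is not reported here as a whole, and Srebf1 was named from it after its values were seen.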

Additional observations from a re-analysis of the deposited data

Results flagged for a closer look

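In 7 of 84 sets of 4 livers (28 genes in 3 groups), 1 liver lay apart from the other 3 of its group. Chance alone gives about 1 in 20 such sets. Of the enzymes, Cyp51 was 1.77 in WT liver 2, against 0.58 to 0.68 in the other WT livers. Ggps1 was 1.65 in WT liver 3, against 1.12 to 1.19, and 1.02 in E2f2-labelled liver 2, against 1.28 to 1.33. Ebp was 7.74 in E2f2-labelled liver 1, against 8.03 to 8.04 in the other 3. Scap was 5.57 in E2f1 knockout liver 3, against 5.13 to 5.19. Of the transport and turnover genes, Stard4 was 4.02 in E2f2-labelled liver 3, against 3.58 to 3.65, and Mylip was -0.93 in E2f2-labelled liver 4, against -0.17 to -0.11.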

How the results depend on the processing

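Acat2 in both comparisons with WT, and Ebp and Npc1 in E2f1 knockout, were called in 24 of 24 other settings. The 4 members called in E2f2-labelled livers became 2 with quantile normalization, with centring on the median, with the deposited matrix values, without the filter on dim probes, and with only the 2 groups compared. The 3 called in E2f1 knockout became 5 with array weights. In E2f2-labelled livers array weights added Cyp51, Lss and Npc1 (adjusted p = 0.011, 0.0198 and 0.0321, limma). Hsd17b7 was lost there (adjusted p = 0.0505, limma). Leaving out 1 liver gave 3 to 6 and 2 to 5 (6 without WT liver 3, 2 without WT liver 1, WT liver 4 or E2f2-labelled liver 4), and 0 to 0 between both labelled knockouts. With the slide as a replicate block, 4 and 5 members were called, Tm7sf2 and Npc1 being added as given above, no other member's call changed, and all genes called rose from 4234 to 5487, from 4565 to 6295 and from 337 to 436.

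All genes called in E2f1 knockout fell from 4234 to 2789 without the filter (2538 to 4897 on leaving out 1 liver, lowest without WT liver 2, 2633 without E2f1 knockout liver 3). In E2f2-labelled livers they fell from 4565 to 2990 with centring on the median and 2989 without the filter (2754 to 5279 on leaving out 1 liver, lowest without WT liver 2, 3042 without E2f2-labelled liver 3). Between both labelled knockouts 337 became 215 with normexp, 208 with probes above background on all 12 arrays and 519 with array weights (235 to 372 on leaving out 1 liver). The share of calls that were higher fell to 50.4% and 49.5% with quantile normalization, 50.1% and 49.0% with centring on the median, and 50.2% and 49.5% with the matrix values. The members' median in E2f2-labelled livers was -0.14 with quantile normalization and with the matrix values (-0.05 to 0.25 on leaving out 1 liver), and in E2f1 knockout it ran from 0.046 to 0.19 on leaving out 1 liver.

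Of the 11 members followed singly under every setting, the differences that reversed were not past the threshold in their own comparison. For Insig2 in E2f1 knockout they were -0.021 with normexp, -0.27 with quantile normalization and with the matrix values, -0.056 with centring on the median and -0.13 with array weights (-0.26 to 0.20 on leaving out 1 liver). For Insig1 they were -0.023 in E2f1 knockout with quantile normalization and -0.022 with the matrix values, and in E2f2-labelled livers -0.016 with normexp, -0.065 with quantile normalization, -0.062 with the matrix values and -0.10 with array weights (-0.014 to 0.33 on leaving out 1 liver). For Hmgcs1 in E2f2-labelled livers they were -0.13 with quantile normalization, -0.14 with the matrix values and -0.19 with array weights (-0.092 to 0.32 on leaving out 1 liver), and for Sqle -0.049 with quantile normalization, -0.051 with the matrix values and -0.04 with array weights. Between both labelled knockouts, leaving out 1 liver gave -0.15 to 0.20 for Insig1 and -0.28 to 0.058 for Acat2. The causes of these changes were not tested. Each used probe was well above background on every array. With the normexp background the members' median difference from WT still fell, for E2f1 knockout from 0.116 to 0.006. For the E2f2-labelled group it went from 0.08 to -0.002. The medians of all genes moved less, from 0.129 to 0.109 and from 0.182 to 0.149. Whether weak signals limit any member was not tested.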
